A study of Homo sapiens with 12 samples.

Results

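The kinetochore is the protein structure that assembles on the centromere of each chromosome and holds it to spindle microtubules during mitosis. Its inner layer sits on nucleosomes that carry the histone variant CENP-A, its outer layer binds microtubules, and the spindle assembly checkpoint signals from kinetochores without attached microtubules and delays anaphase. Transcripts of many of these proteins are known to peak in G2 and mitosis, so their levels in a culture follow the share of cells in that part of the cycle as well as transcription in each cell. Examined here were 47 genes of this apparatus, chosen by function as centromere, kinetochore, Aurora B complex and spindle checkpoint genes with closely linked mitotic kinases, out of 23064 gene symbols in the RNAseq data. For each symbol the transcript with the most counts was used, and all 47 passed the filter on low counts in both cell lines.

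RNAseq was performed in CAL-29 and 5637 cells, established human bladder carcinoma cell lines that are labelled wild type, with 3 libraries per group and 12 libraries in all. In each line, cells transfected with a control siRNA (siCtrl) were compared with cells transfected with an siRNA against KMT9α (siKMT9α), and RNA was collected on day 3. KMT9 is a histone lysine methyltransferase made of KMT9α, encoded by N6AMT1, and KMT9β, encoded by TRMT112. The comparison asks how depletion of KMT9α changes gene expression. CAL-29 cells received 50 nM siRNA with RNAiMAX and 5637 cells 90 nM siRNA with DharmaFECT 3, so cell line, dose and reagent cannot be told apart. The sample labels do not name the siRNA against KMT9α. The deposited tables head its columns si270, the study's text gives siKMT9α#1 for these libraries, and nothing in the sources used here ties the names together. A single siRNA was used, so depletion of the protein cannot be told apart from other effects of that siRNA. Nothing states that the 3 libraries of a group came from separate transfections, and p-values therefore measure only the spread between libraries, which may be technical.

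Libraries held between 24479348.5 and 35151256.5 counts on the transcripts kept. N6AMT1, the targeted gene, was at 11.4, 10.2 and 9.68 CPM (counts scaled to library size, with TMM factors set within a line) in the siCtrl libraries of CAL-29 cells and at 2.82, 2.93 and 1.99 CPM in the siKMT9α libraries. In 5637 cells it was at 13.4, 13.2 and 13.3 CPM with siCtrl and 3.75, 2.21 and 2.56 CPM with siKMT9α. The knockdown thus matched the labels in every library, with a log2 fold change (log2FC, siKMT9α over siCtrl) of -2.00 ± 0.15 (SE) in CAL-29 and -2.23 ± 0.12 in 5637 cells. Of 9 epithelial marker genes, 7 were lower in each line at an edgeR p below 1e-06. Over all genes 15.0% were lower in CAL-29 and 17.6% in 5637 cells. KRT7 was higher in CAL-29 cells, with a log2FC of 0.28 ± 0.06, and TP63 in 5637 cells, at 0.36 ± 0.03. The summed level of the 9 genes went from between 13292 and 13968 CPM to between 6390 and 6542 CPM in CAL-29 cells. In 5637 cells it went from between 8779 and 9204 CPM to between 6075 and 6289 CPM. PTPRC, PECAM1, CD3E and DES, markers of other cell types, were each at or below 0.326 CPM in every library. The part of the epithelial change in the results below was not tested. The first siCtrl library of CAL-29 cells stood apart from its replicates: the chi-square of their counts, divided by its degrees of freedom, was 8.17 and 12.2 for the pairs that hold it and below 4 for all other replicate pairs. Without it, genes past an edgeR p of 1e-06 in CAL-29 cells went from 4402 to 5469. Of the 47 genes 33 were then upregulated in place of 31 and 0 downregulated, their median log2FC was 0.84 in place of 0.88, and 18 in place of 19 had a higher response in CAL-29 cells by the test of the lines described below.

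KMT9α depletion was followed by higher levels of most of these genes in CAL-29 cells and by a smaller and mixed change in 5637 cells. Taken as a sum, the 47 genes rose from 1259 ± 36.6 CPM (SD, n = 3) to 2346 ± 38.6 CPM in CAL-29 cells and from 1865 ± 35.8 to 2160 ± 27.4 CPM in 5637 cells, which is 1.86-fold and 1.16-fold. A gene was called a differentially expressed gene (DEG) at an unadjusted p below 1e-06 in edgeR's quasi-likelihood F test. At this threshold CAL-29 cells had 31 of the 47 genes upregulated and 0 downregulated, where 15.0% of the 14673 genes tested were upregulated and 15.0% downregulated. In 5637 cells 16 were upregulated and 5 downregulated, where 18.0% and 17.6% of 14335 genes were. The median log2FC of the 47 genes was 0.88 in CAL-29 cells, beside -0.02 over all genes, and 0.23 in 5637 cells, beside -0.01. In RNA of whole cultures, a change in the share of cells in mitosis and a change in RNA per cell cannot be told apart.

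**Figure D1:**
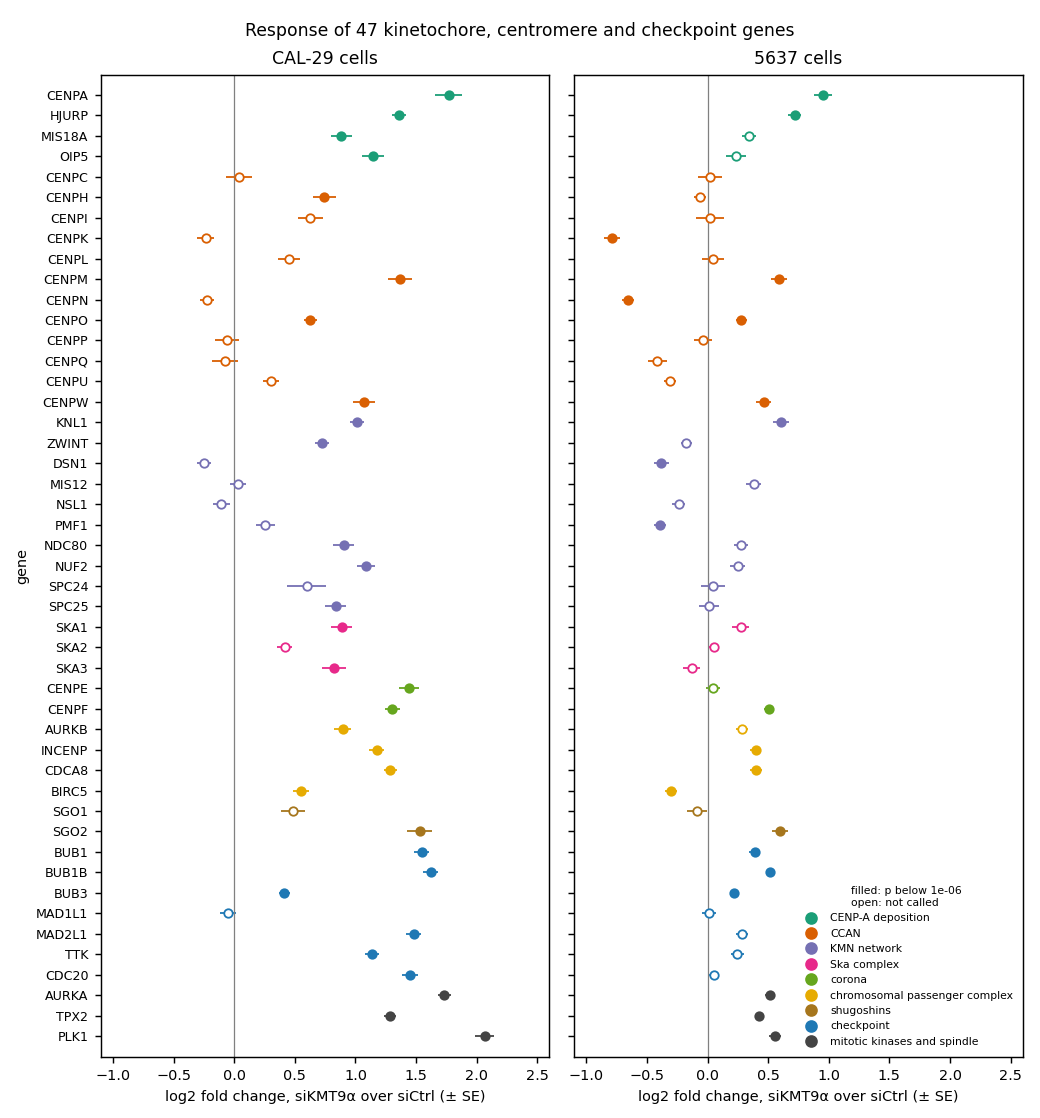
Log2FC of each of the 47 genes, siKMT9α over siCtrl, with its standard error on the horizontal axis, in CAL-29 (left) and 5637 cells (right), coloured by role. Filled points passed p below 1e-06: 31 lie right of 0 on the left, and 16 lie right and 5 left of 0 on the right.

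Looser and stricter definitions gave the same ordering of the lines. At a Benjamini-Hochberg adjusted p below 0.05, 38 members were higher and 3 lower in CAL-29 cells (34.3% and 35.2% of all genes), and 25 were higher and 9 lower in 5637 cells (35.1% and 35.6%). The 3 lower genes in CAL-29 cells were CENPK, CENPN and DSN1, which were also among the 5 downregulated DEGs of 5637 cells. With a log2FC of at least 1 required in addition, 20 members remained in CAL-29 cells, against 3.71% of all genes, and 0 in 5637 cells, against 1.90%. Every siKMT9α library was above every siCtrl library for 37 members in CAL-29 cells (35.6% of all genes) and for 26 in 5637 cells (35.8%). DESeq2 called 33 members up and 0 down in CAL-29 cells and 18 up and 6 down in 5637 cells. It also called more of all genes, 5466 in place of 4402 in CAL-29 and 5468 in place of 5104 in 5637 cells. Of these, 51.6% and 51.8% were up.

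The genes fell into 5 patterns across the lines. Upregulated in both were 16: CENPA, HJURP, CENPM, CENPO, CENPW, KNL1, CENPF, INCENP, CDCA8, SGO2, BUB1, BUB1B, BUB3, AURKA, TPX2 and PLK1. Another 14 passed the threshold in CAL-29 cells alone: MIS18A, OIP5, CENPH, ZWINT, NDC80, NUF2, SPC25, SKA1, SKA3, CENPE, AURKB, MAD2L1, TTK and CDC20. CENPK, CENPN, DSN1 and PMF1 were downregulated in 5637 cells and passed in neither direction in CAL-29 cells. BIRC5 rose in CAL-29 and fell in 5637 cells. The remaining 12, CENPC, CENPI, CENPL, CENPP, CENPQ, CENPU, MIS12, NSL1, SPC24, SKA2, SGO1 and MAD1L1, passed in neither line.

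Of the regulatory sequence of these genes, 4 promoters are shown, because their genes mark the range of responses: PLK1 had the largest rise in CAL-29 cells, CDC20 and CENPE rose in CAL-29 cells alone, and CENPK had the largest fall in 5637 cells. Each window runs from 250 bases before to 50 bases after the RefSeq start, 5′ to 3′ on the strand of the gene, in GRCh38.p14. Capitals mark the letters TTTGAA or TTCGAA, the core of the cell cycle genes homology region (CHR) to which repressor and activator complexes of G2 and M phase genes are known to bind, and CCAAT, the letters bound by NF-Y, on either strand.
PLK1, chr16:23678639-23678938, plus strand: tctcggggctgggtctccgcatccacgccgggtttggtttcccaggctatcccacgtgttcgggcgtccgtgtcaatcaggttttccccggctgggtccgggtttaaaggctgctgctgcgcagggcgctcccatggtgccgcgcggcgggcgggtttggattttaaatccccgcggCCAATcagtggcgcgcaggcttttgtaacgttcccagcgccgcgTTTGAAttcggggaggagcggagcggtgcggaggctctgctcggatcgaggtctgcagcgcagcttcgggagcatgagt
CDC20, chr1:43358731-43359030, plus strand: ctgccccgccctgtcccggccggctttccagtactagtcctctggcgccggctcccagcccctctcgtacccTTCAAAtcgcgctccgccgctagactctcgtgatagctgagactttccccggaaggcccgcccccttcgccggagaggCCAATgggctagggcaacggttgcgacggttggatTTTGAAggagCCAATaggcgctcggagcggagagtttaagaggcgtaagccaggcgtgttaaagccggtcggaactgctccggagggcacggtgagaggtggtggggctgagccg
CENPE, chr4:103198294-103198593, minus strand: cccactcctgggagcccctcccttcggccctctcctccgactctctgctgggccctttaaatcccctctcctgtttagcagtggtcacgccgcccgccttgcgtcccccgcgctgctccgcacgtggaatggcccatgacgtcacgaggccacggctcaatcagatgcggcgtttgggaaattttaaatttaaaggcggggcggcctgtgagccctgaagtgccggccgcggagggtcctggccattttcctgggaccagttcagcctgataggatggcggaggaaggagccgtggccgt
CENPK, chr5:65563119-65563418, minus strand: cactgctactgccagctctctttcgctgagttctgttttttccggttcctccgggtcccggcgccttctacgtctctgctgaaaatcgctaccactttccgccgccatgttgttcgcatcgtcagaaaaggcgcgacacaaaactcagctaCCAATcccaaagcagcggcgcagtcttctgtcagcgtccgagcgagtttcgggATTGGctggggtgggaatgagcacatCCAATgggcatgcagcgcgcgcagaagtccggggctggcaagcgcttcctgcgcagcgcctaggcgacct
The PLK1 window holds 1 CHR match and 1 CCAAT match and that of CDC20 holds 2 of each. The CENPE window holds neither set of letters, and that of CENPK holds 3 CCAAT matches and no CHR match.

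RefSeq promoter windows were matched for 37 of the 47 genes, 43 windows in all. TTTGAA or TTCGAA, on either strand and counted once where both occur, was in 53.5% of these windows and in 16.4% of all 35116 windows. TTTGAA alone was in 44.2% against 15.2%, and TTCGAA in 11.6% against 1.45%. CCAAT was in 69.8% against 34.6%, and one of the E2F-like strings TTTGGCGC, TTTCCCGC and TTTCGCGC in 11.6% against 2.74%. The 22 genes with TTTGAA or TTCGAA had a median log2FC of 1.12 in CAL-29 and 0.28 in 5637 cells. For the 15 genes without, the medians were 0.26 and 0.01. In CAL-29 cells 19 of the 22 were upregulated, all but CENPC, CENPN and SGO1, and so were 3 of the 15, CENPE, AURKB and SGO2. Over all genes 15.0% were upregulated in CAL-29 cells, and 18.0% were upregulated and 17.6% downregulated in 5637 cells. In 5637 cells 10 of the 22 were upregulated and CENPN was downregulated, and of the 15 SGO2 was upregulated and CENPK, DSN1 and PMF1 were downregulated. The 10 genes without a matched window were MIS18A, CENPH, CENPL, CENPM, KNL1, BIRC5, BUB3, TTK, AURKA and TPX2. All but CENPL were upregulated in CAL-29 cells, so the comparison by letters leaves out much of the rise. In 5637 cells CENPM, KNL1, BUB3, AURKA and TPX2 of these were upregulated and BIRC5 was downregulated. A match is a description of letters and not of binding. The responses of all genes with and without these letters were not computed, and a link of letters and response was not tested.

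The genes that place CENP-A at the centromere were upregulated together in CAL-29 cells, 4 of 4, beside 15.0% of all genes. Their log2FCs ran from 0.88 to 1.77. In 5637 cells 2 of 4 were upregulated, beside 18.0% of all genes, with log2FCs from 0.23 to 0.95. CENPA, the histone H3 variant that marks the centromere (chr2:26987157-27023935 (plus strand), GRCh37, like the gene positions that follow), had the largest change of all members in 5637 cells. It was at 5.14, 7.07 and 7.14 CPM in siCtrl and 20.2, 23.1 and 22.99 CPM in siKMT9α libraries of CAL-29 cells, a log2FC of 1.77 ± 0.11 (SE, adjusted p = 1.10e-11). The 5637 libraries went from 10.2, 9.76 and 11.02 to 20.01, 19.7 and 20.3 CPM, a log2FC of 0.95 ± 0.07 (SE, adjusted p = 2.22e-12). The groups did not overlap in either line, and the siKMT9α libraries of both lines lay between 19.7 and 23.1 CPM, each on the scale of its line. HJURP, the chaperone that delivers CENP-A, followed with log2FCs of 1.36 ± 0.06 and 0.72 ± 0.05 in CAL-29 and 5637 cells.

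MIS18A, a subunit of the complex that licenses the centromere for new CENP-A, had the highest control level per transcript length of the 4 in 5637 cells, and HJURP was slightly above it in CAL-29 cells, at 7.43 against 7.10 RPKM (CPM per kilobase of transcript). It rose from 10.3, 11.1 and 11.6 to 19.4, 19.9 and 21.6 CPM in CAL-29 cells, a log2FC of 0.88 ± 0.09 (SE, adjusted p = 1.46e-08). In 5637 cells the libraries were at 21.1, 21.7 and 21.4 CPM with siCtrl and 26.7, 28.1 and 26.5 CPM with siKMT9α, 0.34 ± 0.06 (SE, adjusted p = 7.74e-06), which did not reach 1e-06 although the groups did not overlap. OIP5, which encodes its partner MIS18β, rose by a log2FC of 1.14 ± 0.09 in CAL-29 cells and was at 0.23 ± 0.08 in 5637 cells. OIP5 shares 92.5% of its exon bases with genes on the other strand, NUSAP1 and OIP5-AS1 among them, and the use of strand in counting is not stated, so its counts may include theirs.

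The constitutive centromere-associated network (CCAN), the inner layer that links CENP-A chromatin to the outer kinetochore, had members called in both directions in 5637 cells. Of its 12 members, 4 were upregulated in CAL-29 cells (CENPH, CENPM, CENPO and CENPW), beside 15.0% of all genes, with a group median of 0.38. In 5637 cells 3 were upregulated (CENPM, CENPO and CENPW) and 2 downregulated (CENPK and CENPN), with a median of -0.01. These 5637 counts were near the 18.0% and 17.6% of all genes. Within the CCAN CENPM had the largest rise, 1.37 ± 0.10 in CAL-29 and 0.59 ± 0.07 in 5637 cells. CENPW, a histone fold protein that pairs with CENPT, rose by 1.07 ± 0.09 and 0.46 ± 0.06. CENPC, the CCAN protein that contacts both CENP-A nucleosomes and the outer kinetochore, was at 0.04 ± 0.11 and 0.02 ± 0.10, with overlapping groups in both lines.

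CENPH, CENPI, CENPK and CENPM, which form 1 subcomplex, did not move alike. CENPH was at 13.9, 18.9 and 19.1 CPM with siCtrl and 26.7, 29.4 and 31.02 CPM with siKMT9α in CAL-29 cells, a log2FC of 0.74 ± 0.10 (SE, adjusted p = 8.04e-07). Its low siCtrl library was the first, and the call was lost without siCtrl replicate 2 or siKMT9α replicate 2 or 3, with edgeR p up to 1.10e-05. In 5637 cells CENPH was at 38.6, 38.5 and 39.8 and 37.1, 39.95 and 35.02 CPM, with overlapping groups and a log2FC of -0.06 ± 0.05 (SE, adjusted p = 0.291). CENPK (chr5:64813593-64858995 (minus strand)) showed the largest fall of all members. It went from 24.6, 25.04 and 22.7 CPM to 13.6, 14.1 and 14.02 CPM in 5637 cells, a log2FC of -0.79 ± 0.07 (SE, adjusted p = 1.64e-11) or 0.578 of the control level. In CAL-29 cells its libraries were at 24.97, 26.6 and 25.6 CPM with siCtrl and 21.1, 22.3 and 22.2 CPM with siKMT9α, -0.24 ± 0.07 (SE, adjusted p = 0.00522), separated but short of 1e-06.

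CENPN, which recognises CENP-A nucleosomes together with CENPL, fell in 5637 cells from 38.6, 37.7 and 40.3 to 25.3, 24.6 and 24.2 CPM, a log2FC of -0.66 ± 0.05 (SE, adjusted p = 7.08e-12). The CAL-29 libraries were at 56.4, 61.3 and 60.8 CPM with siCtrl and 52.2, 52.9 and 47.05 CPM with siKMT9α, -0.23 ± 0.06 (SE, adjusted p = 0.00167). These values belong to the 1 of its 3 RefSeq transcripts with the most counts. The other 2 had log2 ratios of group means of 0.11 and 0.26 in CAL-29 cells and of -0.28 and -0.08 in 5637 cells, so the fall was not shared evenly between annotated transcripts. CENPN (chr16:81040157-81066719 (plus strand)) also shares 10.5% of its exon bases with genes on the other strand and 12.6% on its own strand. CENPO, CENPP, CENPQ and CENPU, a further subcomplex, split as well: CENPO rose by 0.63 ± 0.05 and 0.28 ± 0.04, and CENPQ was at -0.08 ± 0.11 and -0.41 ± 0.08. CENPO shares 31.6% of its exon bases with genes on the other strand.

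Within the KMN network, which makes up the microtubule-binding outer kinetochore, KNL1, ZWINT and 3 of 4 NDC80 complex genes were upregulated in CAL-29 cells, and 0 of 4 MIS12 complex genes. Of 10 members, 5 were upregulated in CAL-29 cells, beside 15.0% of all genes, with a group median of 0.66. In 5637 cells 1 was upregulated and 2 downregulated, near the 18.0% and 17.6% of all genes, with a median of 0.03. KNL1, the scaffold on which checkpoint proteins gather, was the member upregulated in both lines, by 1.01 ± 0.06 and 0.60 ± 0.07. NDC80, NUF2 and SPC25, of the complex that grips microtubules, rose by 0.90 ± 0.09, 1.09 ± 0.08 and 0.84 ± 0.09 in CAL-29 cells. Their log2FCs in 5637 cells were 0.27, 0.25 and 0.01. SPC24, the remaining subunit, was the member with the largest standard error, 0.60 ± 0.16 in CAL-29 cells, at a level near 3 CPM in siCtrl libraries. ZWINT, which binds KNL1, rose by 0.73 ± 0.06 in CAL-29 cells and was at -0.17 ± 0.04 in 5637 cells.

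MIS12, DSN1, NSL1 and PMF1 form the complex that joins the KMN network to the CCAN. None of the 4 passed the threshold in CAL-29 cells, and DSN1 and PMF1 were downregulated in 5637 cells. PMF1 (chr1:156182784-156209833 (plus strand)) was the member with the highest control level per length in 5637 cells. It fell there from 55.6, 57.02 and 62.1 to 45.6, 43.05 and 44.7 CPM, a log2FC of -0.39 ± 0.05 (SE, adjusted p = 3.00e-08). Its CAL-29 libraries were at 24.9, 28.7 and 24.5 CPM with siCtrl and 28.4, 32.9 and 31.98 CPM with siKMT9α, with overlapping groups and a log2FC of 0.26 ± 0.08 (SE, adjusted p = 0.00566). PMF1 shares 23.3% of its exon bases with the readthrough gene PMF1-BGLAP, whose reads cannot be separated from its own.

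DSN1 (chr20:35380194-35402221 (minus strand)) moved the same way in both lines. Its 5637 libraries fell from 34.04, 31.1 and 34.7 to 25.2, 24.2 and 27.2 CPM, a log2FC of -0.38 ± 0.06 (SE, adjusted p = 1.68e-06). In CAL-29 cells it was at 42.3, 43.6 and 45.9 CPM with siCtrl and 36.6, 36.8 and 37.7 CPM with siKMT9α, -0.25 ± 0.06 (SE, adjusted p = 7.12e-04), with no overlap between groups. The 5637 call lay close to the threshold, and it was lost in 4 of 6 fits that left out 1 library, siCtrl replicate 1 or 3 or siKMT9α replicate 1 or 2, with edgeR p up to 1.96e-05. MIS12 went the other way in 5637 cells, at 0.38 ± 0.06 (SE, adjusted p = 5.36e-06), and was at 0.03 ± 0.07 in CAL-29 cells.

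The Ska complex, which keeps kinetochores on shortening microtubule ends, rose in part in CAL-29 cells: SKA1 and SKA3 by 0.89 ± 0.09 and 0.82 ± 0.10. None of its 3 members passed in 5637 cells. SKA2, the most abundant per length, was at 28.9, 31.8 and 30.2 CPM with siCtrl and 40.1, 40.2 and 40.8 CPM with siKMT9α in CAL-29 cells, a log2FC of 0.41 ± 0.06 (SE, adjusted p = 3.73e-06). Its p of 1.13e-06 in the edgeR test, with an adjusted p far below 0.05, missed the threshold narrowly. The 5637 libraries were at 84.2, 89.5 and 88.1 and 90.3, 91.2 and 90.01 CPM, 0.05 ± 0.04 (SE, adjusted p = 0.219), the lowest siKMT9α library being above the highest siCtrl library by less than 1 CPM.

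CENPE and CENPF belong to the fibrous corona, the outermost layer. CENPE (chr4:104026506-104119602 (minus strand)), the kinesin that carries chromosomes to the spindle equator, rose in CAL-29 cells from 10.4, 9.30 and 11.4 to 26.9, 28.7 and 29.1 CPM, a log2FC of 1.44 ± 0.09 (SE, adjusted p = 4.56e-12). By contrast, 5637 libraries were at 31.3, 34.9 and 31.2 CPM with siCtrl and 36.4, 31.4 and 32.6 CPM with siKMT9α, 0.04 ± 0.06 (SE, adjusted p = 0.522). The groups overlapped in 5637 cells and were apart in CAL-29 cells, where the siKMT9α libraries were below the 5637 range, each line on its own scale. CENPF, a large microtubule-binding protein, rose in both lines. It went from 91.8, 77.5 and 93.1 to 204, 218 and 225 CPM in CAL-29 cells, 1.30 ± 0.06 (SE, adjusted p = 9.04e-14), and from 129, 129 and 126 to 198, 172 and 176 CPM in 5637 cells, 0.51 ± 0.04 (SE, adjusted p = 5.61e-12).

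All 4 members of the chromosomal passenger complex, which corrects faulty attachments, were upregulated in CAL-29 cells, beside 15.0% of all genes. Their median log2FC was 1.03. INCENP, its scaffold, rose by 1.17 ± 0.06 in CAL-29 and 0.40 ± 0.04 in 5637 cells, and CDCA8, encoding borealin, by 1.29 ± 0.06 and 0.40 ± 0.05. AURKB, the kinase of the complex and its most abundant member per length, went from 19.2, 20.3 and 17.7 to 36.5, 35.4 and 34.4 CPM in CAL-29 cells, 0.90 ± 0.07 (SE, adjusted p = 4.19e-10). Libraries of 5637 cells were at 42.7, 47.2 and 45.7 CPM with siCtrl and 53.9, 54.6 and 56.3 CPM with siKMT9α, without overlap, at 0.28 ± 0.05 (SE, adjusted p = 4.84e-06) and an edgeR p of 1.79e-06 that missed the threshold.

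BIRC5 (chr17:76210267-76221717 (plus strand)), which encodes survivin, was the member called in opposite directions. In CAL-29 cells it rose from 33.6, 36.4 and 41.4 to 53.8, 54.8 and 54.6 CPM, a log2FC of 0.55 ± 0.07 (SE, adjusted p = 2.69e-07). The 5637 libraries fell from 61.6, 68.7 and 66.2 to 50.4, 55.01 and 53.8 CPM, -0.30 ± 0.05 (SE, adjusted p = 1.70e-06). The siKMT9α libraries of both lines thus lay between 50.4 and 55.0 CPM on their own scales, and the siCtrl libraries lay below that range in CAL-29 and above it in 5637 cells. Both calls sat near the threshold: p rose to at most 3.35e-06 in CAL-29 cells, without siCtrl replicate 2 or siKMT9α replicate 3, and to 6.96e-06 in 5637 cells, where 5 of 6 fits without 1 library lost the call, all but the fit without siCtrl replicate 1. The direction was kept in each of these fits.

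Of the shugoshins, which protect centromeric cohesin, SGO2 rose in both lines and SGO1 passed in neither. SGO2 rose by 1.53 ± 0.10 in CAL-29 and 0.60 ± 0.07 in 5637 cells. SGO1, whose control level per length was above that of SGO2 in CAL-29 cells and within 1 SD of it in 5637 cells, was at 8.65, 8.05 and 8.54 CPM with siCtrl and 12.5, 11.4 and 11.4 CPM with siKMT9α in CAL-29 cells, 0.49 ± 0.10 (SE, adjusted p = 2.27e-04). For 5637 cells the values were 11.3, 10.8 and 11.6 and 11.2, 10.4 and 10.3 CPM, -0.08 ± 0.08 (SE, adjusted p = 0.369), with overlapping groups.

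The spindle assembly checkpoint genes were mostly upregulated in CAL-29 cells, 6 of 7, beside 15.0% of all genes. Their median log2FC was 1.45, which only the mitotic kinase and spindle group exceeded. In 5637 cells BUB1, BUB1B and BUB3 were upregulated, beside 18.0% of all genes, and the group median was 0.25. BUB1 (chr2:111395105-111435640 (minus strand)), the kinase that recruits other checkpoint proteins to KNL1, went from 25.4, 27.3 and 29.3 to 77.2, 82.00 and 80.7 CPM in CAL-29 cells, 1.55 ± 0.06 (SE, adjusted p = 4.54e-15). The rise in 5637 cells went from 46.00, 45.9 and 45.3 to 63.1, 59.6 and 57.3 CPM, 0.39 ± 0.05 (SE, adjusted p = 1.11e-08). BUB1B, encoding BubR1, rose by 1.62 ± 0.06 and 0.52 ± 0.04, and BUB3, their partner in the checkpoint complex, by 0.41 ± 0.05 and 0.22 ± 0.03. TTK, the kinase that starts checkpoint signalling, rose by 1.14 ± 0.06 in CAL-29 cells and was at 0.25 ± 0.06 in 5637 cells.

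MAD2L1 (chr4:120976778-120988013 (minus strand)) encodes MAD2, which captures CDC20 when the checkpoint is on. In CAL-29 cells it rose from 20.4, 22.7 and 23.4 to 62.6, 63.1 and 59.7 CPM, 1.48 ± 0.06 (SE, adjusted p = 2.05e-14). In 5637 cells it was at 33.2, 37.4 and 36.6 CPM with siCtrl and 44.3, 42.2 and 44.05 CPM with siKMT9α, 0.29 ± 0.05 (SE, adjusted p = 1.81e-05), apart but short of the threshold. MAD1L1, which encodes the partner that holds MAD2 at kinetochores, was at -0.05 ± 0.07 in CAL-29 and 0.01 ± 0.06 in 5637 cells, with overlapping groups in both. The pair thus parted in CAL-29 cells. MAD1L1 shares 43.2% of its exon bases with other genes on its own strand.

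CDC20 (chr1:43824652-43828874 (plus strand)), the activator of the anaphase-promoting complex and the target of the checkpoint, differed most between the lines in this group. It rose from 28.7, 34.7 and 32.9 to 84.6, 87.7 and 91.2 CPM in CAL-29 cells, a log2FC of 1.45 ± 0.06 (SE, adjusted p = 2.87e-14). Libraries of 5637 cells were at 84.03, 91.8 and 90.9 CPM with siCtrl and 90.5, 96.8 and 90.1 CPM with siKMT9α, 0.06 ± 0.04 (SE, adjusted p = 0.228). The 5637 groups overlapped, and the siKMT9α libraries of CAL-29 cells lay within the range of the 5637 libraries, each line on its own scale. The promoter window shown above for CDC20 holds CHR and CCAAT matches, and that of CENPE holds neither. Only these exact letters were searched, and their part in the responses was not tested.

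AURKA, TPX2 and PLK1, the mitotic kinases and spindle group, were upregulated in both lines, 3 of 3. Over all genes the share was 15.0% in CAL-29 and 18.0% in 5637 cells. The group medians were 1.73 in CAL-29 and 0.51 in 5637 cells. PLK1 (chr16:23688977-23701688 (plus strand)), a kinase with roles from mitotic entry to kinetochore attachment, had the largest change of all members in CAL-29 cells. It rose there from 11.4, 13.8 and 14.5 to 51.4, 56.5 and 59.1 CPM, which is 4.19-fold, with a log2FC of 2.07 ± 0.08 (SE, adjusted p = 5.01e-15). The 5637 libraries rose from 46.9, 48.7 and 53.02 to 77.8, 72.2 and 69.1 CPM, 0.56 ± 0.05 (SE, adjusted p = 4.22e-11). Groups were apart in both lines, and the CAL-29 siKMT9α libraries reached the range of the 5637 siCtrl libraries, each line on its own scale. PLK1 shares 12.8% of its exon bases with genes on the other strand.

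AURKA (chr20:54944445-54967393 (minus strand)), the kinase of the spindle poles, went from 36.8, 40.3 and 41.1 to 125, 136 and 132 CPM in CAL-29 cells, 1.73 ± 0.05 (SE, adjusted p = 1.81e-16). In 5637 cells it went from 50.05, 50.1 and 50.05 to 72.8, 69.8 and 71.9 CPM, 0.51 ± 0.04 (SE, adjusted p = 5.68e-12). All 3 siKMT9α libraries were above all 3 siCtrl libraries in each line. TPX2 (chr20:30327074-30389608 (plus strand)), which activates AURKA on the spindle, was the member with the highest siCtrl level per length in CAL-29 cells. It rose from 106, 109 and 113 to 254, 278 and 270.1 CPM in CAL-29 cells, 1.29 ± 0.05 (SE, adjusted p = 4.15e-15), and from 133, 136 and 138 to 186, 184 and 179 CPM in 5637 cells, 0.43 ± 0.03 (SE, adjusted p = 3.54e-12). Among all members, AURKA, CENPN, CENPU and SGO1 have 2 annotated pseudogenes each by name, with which reads could be shared. CDC20, BUB1, BUB3, MAD2L1, AURKB, SKA2, CENPC, CENPI and CENPP have 1 each.

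**Figure D2:**
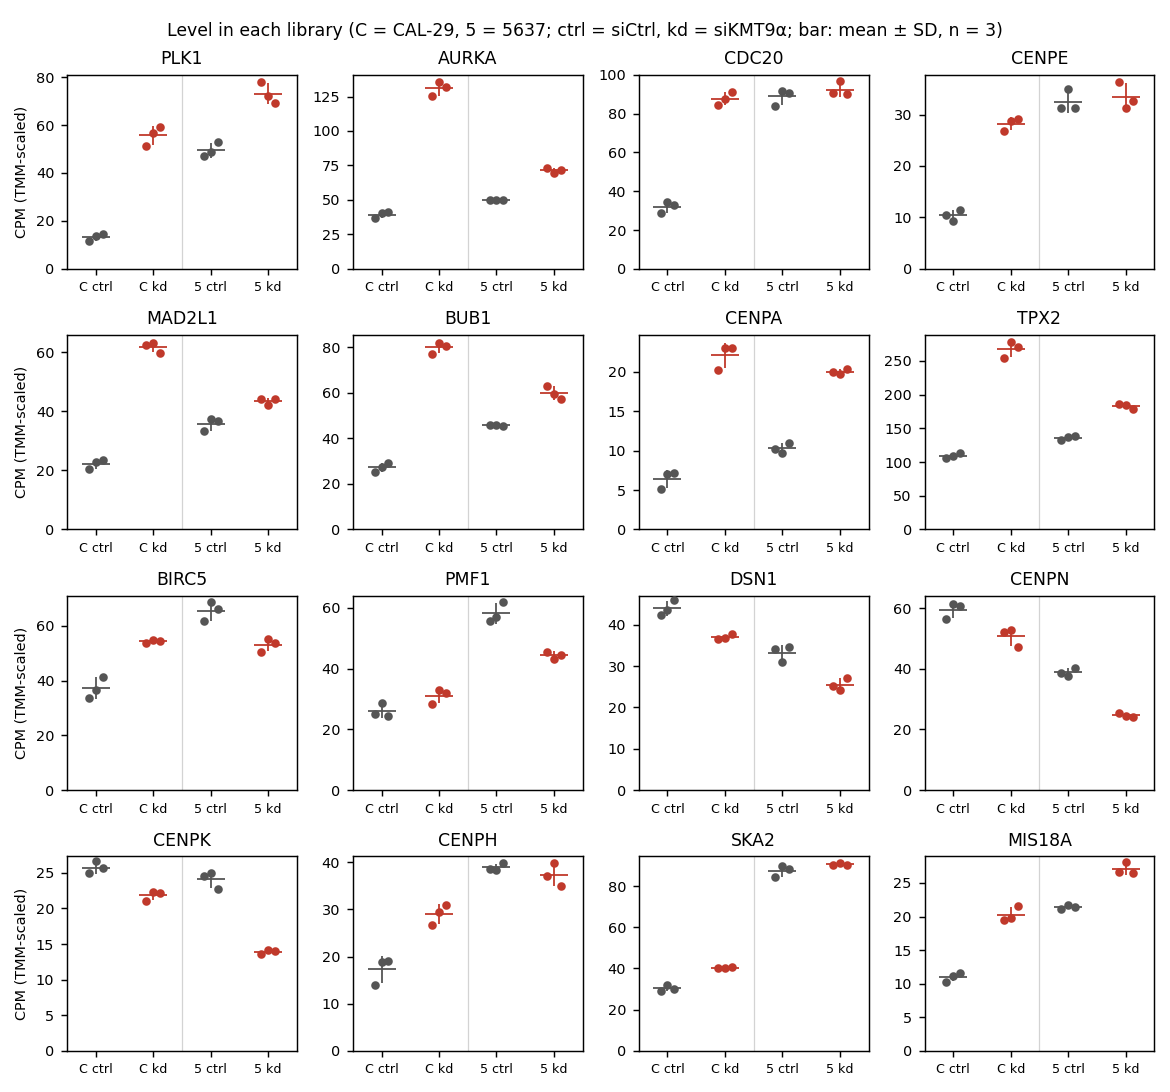
TMM-scaled CPM of 16 members in each library (points), with the mean and SD of 3 libraries (bars), for siCtrl in grey and siKMT9α in red. The scale was set within each line. PLK1, AURKA, CDC20, CENPE, MAD2L1 and BUB1 have the largest differences in log2FC between the lines, while CENPK, CENPN, DSN1, PMF1 and BIRC5 are lower with siKMT9α in 5637 cells.

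A few genes carried much of the summed change, since a sum of CPM weights long and highly transcribed genes. In CAL-29 cells TPX2 made up 14.5% of the net rise of 1086 CPM, CENPF 11.8% and AURKA 8.43%, and with BUB1B and CDC20 these genes made up 45.5%. In 5637 cells CENPF made up 18.3% and TPX2 15.9% of the net rise of 295 CPM, and with BUB1B, PLK1 and AURKA 59%. The sum therefore says less about the CCAN and KMN genes than their own medians do.

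Whether the response differed between the lines was tested directly, with an interaction term over all 12 libraries against a difference of 1.5-fold. For 19 members the response was higher in CAL-29 than in 5637 cells and for 0 it was lower, where 5.77% and 4.96% of 15395 genes were. At an unadjusted p below 0.05 in the same glmTreat test the counts were 22 and 0, and edgeR's test of any interaction gave 41 and 1. For these looser definitions the share over all genes was not computed, so these counts cannot be set against it. The difference was above 0 for 44 of the 47 genes, with a median of 0.66 on the log2 scale. It was largest for PLK1, at 1.52 ± 0.10 (SE, adjusted p = 1.17e-09), CENPE, at 1.41 ± 0.11 (SE, adjusted p = 4.42e-08), and CDC20, at 1.41 ± 0.08 (SE, adjusted p = 1.20e-10). AURKA differed by 1.23 ± 0.07 (SE, adjusted p = 9.33e-10), MAD2L1 by 1.21 ± 0.08 (SE, adjusted p = 7.27e-08) and BUB1 by 1.17 ± 0.08 (SE, adjusted p = 4.87e-08).

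By role, most of the 19 genes belonged to the outer kinetochore, the checkpoint and the kinases. All 3 mitotic kinase and spindle genes, both corona genes, 5 of 7 checkpoint genes and 3 of 4 passenger complex genes were among them. OIP5, SKA3 and SGO2 were the single genes of their groups. Of 10 KMN genes it was 3 (ZWINT, NUF2 and SPC25), and of 12 CCAN genes 0. The CCAN differences were nevertheless above 0 for 11 of 12 genes, with a median of 0.51. CENPH, at 0.82 ± 0.11 (SE, adjusted p = 0.0532), and CENPM, at 0.80 ± 0.12 (SE, adjusted p = 0.0897), missed the threshold. BIRC5, called in opposite directions, differed by 0.87 ± 0.08 (SE, adjusted p = 0.00314). CENPK and CENPN, which were called in 5637 cells alone, differed by 0.57 ± 0.09 (SE, adjusted p = 1) and 0.45 ± 0.08 (SE, adjusted p = 1), so for them a difference beyond 1.5-fold was not shown. The edgeR test of any interaction gave adjusted p = 8.99e-06 for CENPK and 2.55e-05 for CENPN. CENPA, with the largest 5637 response, differed by 0.83 ± 0.14 (SE, adjusted p = 0.0883).

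**Figure D3:**
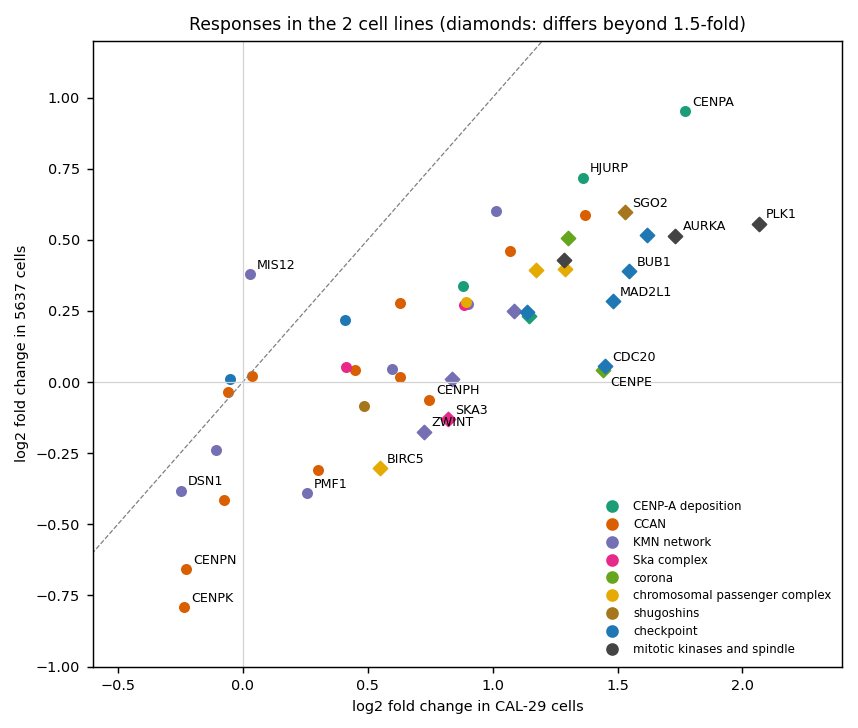
Log2FC of the 47 genes in CAL-29 (horizontal) against 5637 cells (vertical), coloured by role, with the line of equal response dashed. Diamonds mark the 19 genes whose response was higher in CAL-29 cells by the test against 1.5-fold, and 44 genes lie below the dashed line.

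The order of responses was alike in the lines although their size was not. Over the 47 genes, the responses correlated between the lines with a Pearson r of 0.785 and a Spearman rho of 0.803, which is a description across genes measured in the same libraries and not a test.

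The control cells of the lines started from different levels. With all 12 libraries scaled together, 37 members were lower and 4 higher in siCtrl CAL-29 than in siCtrl 5637 cells at an adjusted p below 0.05 in edgeR, where 42.5% and 42.9% of all genes were. The median log2 difference was -0.65. PLK1 was lowest relative to 5637 cells, at a log2 difference of -1.97, followed by CENPE at -1.71. The 4 higher genes were CENPI, CENPN, DSN1 and MIS12, none of which passed p below 1e-06 as upregulated in either line. At an adjusted p below 0.05 in edgeR, siKMT9α raised CENPI in CAL-29 cells (0.63 ± 0.10) and MIS12 in 5637 cells, and CENPN and DSN1 were lower in both lines. The sum of the 47 genes on the joint scale was 1226 CPM in siCtrl CAL-29 and 1903 CPM in siCtrl 5637 cells. With siKMT9α it was 2312 CPM in CAL-29 and 2207 CPM in 5637 cells. Thus 39 of 47 genes were lower in CAL-29 than in 5637 siCtrl cells, whereas 26 were higher in CAL-29 than in 5637 siKMT9α cells. Since the difference in response and the difference in control level rest on the same siCtrl libraries, no relation between them was computed.

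**Figure D4:**
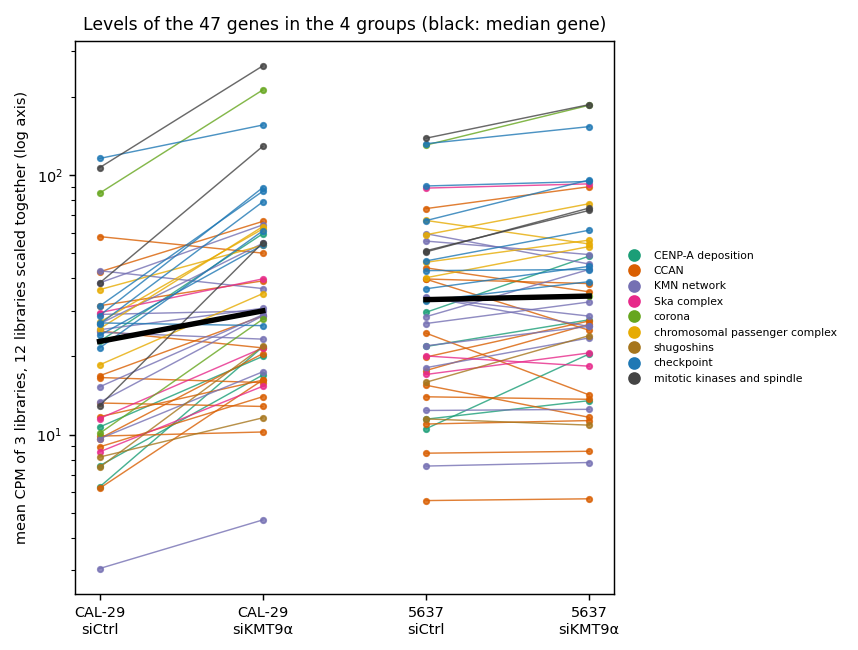
Mean CPM of each gene in the 4 groups on a log axis, with the 12 libraries scaled together. Thin lines join siCtrl and siKMT9α of 1 gene, coloured by role, and the black line joins the medians over genes. The summed level of the 47 genes runs from 1226 to 2312 CPM in CAL-29 and from 1903 to 2207 CPM in 5637 cells.

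Control levels of the members were compared per transcript length. RPKM, the CPM divided by transcript length in kilobases, in siCtrl libraries had a median of 7.43 in CAL-29 cells, from 1.22 for CENPE to 31.6 ± 1.02 (SD, n = 3) for TPX2. PMF1, at 24.4 ± 2.16, and ZWINT, at 21.2 ± 0.430, came next. In 5637 cells the median was 12.3 RPKM, from 0.977 for CENPI to 54.5 ± 3.20 for PMF1, with CDC20 at 53.9 ± 2.58 and TPX2 at 39.1 ± 0.753. PMF1 and CDC20 were not separated beyond their spread. Of the 46 pairs of neighbours in the order, 32 in CAL-29 and 29 in 5637 cells lay within 1 SD. The level order of the lines had a Spearman rho of 0.833. Subunits of one complex were not at one level: in siCtrl 5637 cells SPC24 was at 3.24 ± 0.258 RPKM and NDC80, its partner, at 12.3 ± 0.455 RPKM.

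Genes next to these in the pathway, from lists that hold no member, were read the same way. Of 29 other kinetochore and checkpoint genes, CAL-29 cells had 13 upregulated and 1 downregulated (median 0.52), and 15 and 2 in 5637 cells (median 0.38). Over all genes the shares were 15.0% and 15.0% in CAL-29 and 18.0% and 17.6% in 5637 cells. By the interaction test 2 of the 29 genes were higher and 1 lower in CAL-29 cells, close to the 5.77% and 4.96% of all genes. The lower one was CENPT, the partner of the member CENPW. It fell in CAL-29 cells at -0.83 ± 0.07 and was at 0.42 ± 0.07 in 5637 cells. Its difference was -1.23 ± 0.10 (SE, adjusted p = 1.20e-06). TRIP13, the ATPase that takes MAD2 complexes apart, rose by 1.13 ± 0.06 in CAL-29 and 0.28 ± 0.04 in 5637 cells. ITGB3BP, which encodes the CCAN protein CENP-R, rose by 1.09 ± 0.13 and 0.57 ± 0.08, and CENPX, a partner of CENPS in the CCAN, by 0.78 ± 0.07 and 0.70 ± 0.05. CLASP1, a microtubule stabiliser, rose by 0.69 ± 0.04 in 5637 cells and was at 0.34 ± 0.05 in CAL-29 cells.

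Among 32 anaphase and cohesin genes, 17 rose and 2 fell in CAL-29 cells (median 0.40), and 12 and 4 in 5637 cells (median 0.17). The shares of all genes were 15.0% and 15.0% in CAL-29 and 18.0% and 17.6% in 5637 cells. CCNB1, the cyclin whose destruction ends mitosis, rose by 1.65 ± 0.05 and 0.57 ± 0.04. ANAPC13, a small subunit of the anaphase-promoting complex, fell in both lines, with log2FCs of -1.71 ± 0.07 and -1.81 ± 0.06, while its coactivator CDC20 rose in CAL-29 cells. RAD21, the cleavable subunit of cohesin, rose by 0.48 ± 0.05 in CAL-29 cells and fell in 5637 cells at -0.68 ± 0.03. The interaction test called 7 genes of this list higher and 1 lower in CAL-29 cells (5.77% and 4.96% of all genes).

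Of 20 regulators known to act on mitotic gene transcription, 7 rose and 2 fell in CAL-29 cells (median 0.28), and 6 and 3 in 5637 cells (median 0.10). Over all genes it was 15.0% and 15.0% in CAL-29 and 18.0% and 17.6% in 5637 cells. FOXM1, an activator of G2 and M phase genes, rose by 1.62 ± 0.05 in CAL-29 and 0.85 ± 0.04 in 5637 cells and was called higher in CAL-29 cells, at 0.78 ± 0.06 (SE, adjusted p = 0.00599). E2F8, a repressor of cell cycle genes, rose by 0.98 ± 0.09 in CAL-29 cells and was at 0.05 ± 0.07 in 5637 cells, and its relative E2F7 was at 0.26 ± 0.06 and rose by 0.67 ± 0.04. The interaction test called 3 of these genes higher and 1 lower in CAL-29 cells (5.77% and 4.96% of all genes). The lower one, CDKN1A, fell in CAL-29 cells at -0.78 ± 0.05 and rose in 5637 cells by 0.64 ± 0.04. Its difference was -1.41 ± 0.06 (SE, adjusted p = 6.84e-13).

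Of 30 S phase genes, 25 rose and 2 fell in CAL-29 cells (median 0.62), beside 15.0% and 15.0% of all genes. In 5637 cells 5 rose and 7 fell (median -0.06), near the 18.0% and 17.6% of all genes. The interaction test called 11 higher and 0 lower in CAL-29 cells (5.77% and 4.96% of all genes). CCNE1, the cyclin of S phase entry, rose by 1.10 ± 0.09 and 0.32 ± 0.05, and DSCC1, a subunit of a clamp loader, by 1.10 ± 0.10 and 0.46 ± 0.07. MCM6, of the replicative helicase, and UHRF1, which maintains DNA methylation, fell in both lines, with log2FCs of -0.59 ± 0.06 and -0.37 ± 0.05 in CAL-29 and -1.63 ± 0.04 and -1.16 ± 0.04 in 5637 cells. The part of cell cycle distribution in the counts of S phase and kinetochore genes was not tested.

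**Figure D5:**
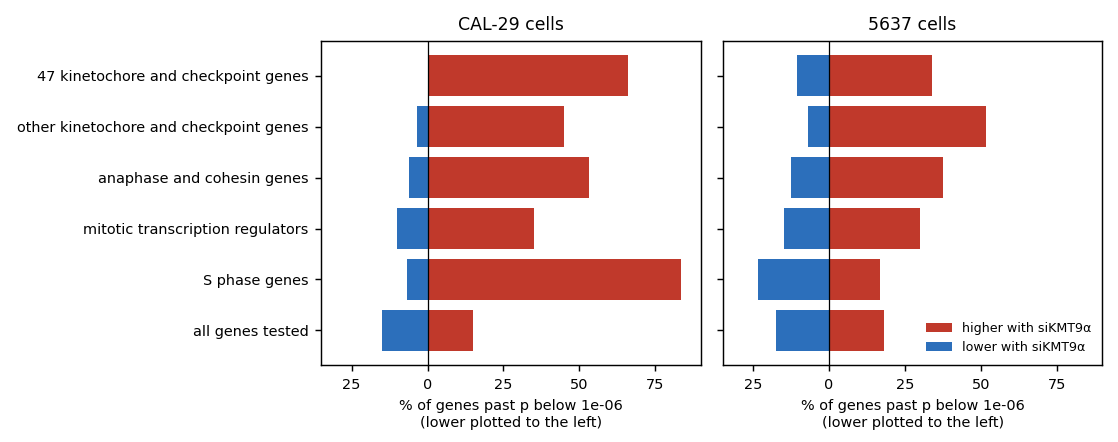
Percentage of genes in each list past p below 1e-06, upregulated to the right in red and downregulated to the left in blue, in CAL-29 (left) and 5637 cells (right). The bottom bars give all genes tested, 15.0% up and 15.0% down in CAL-29 and 18.0% up and 17.6% down in 5637 cells.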

How the data were processed

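RNAseq of 12 libraries was analysed, 3 each with siCtrl and siKMT9α in CAL-29 and 5637 cells, grouped by the sample labels. Reads were aligned by the authors to hg19 with STAR 2.7.10b and counted with Homer 4.11 (analyzeRepeats, default settings). The deposited values are estimated counts, unnormalized and in steps of 0.5, for 37400 RefSeq transcripts of 23064 symbols. The tables also carry results of the authors' own comparison of siRNA groups (p-value, adjusted p-value, log2 fold change), and these were not used.

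Per symbol, the transcript with the most counts in a line was kept and rounded to whole counts. Libraries were scaled with TMM, filtered with filterByExpr, and tested per line with the quasi-likelihood F test of edgeR 4.0.16 (R 4.3.3). DEGs had an unadjusted p below 1e-06, the threshold of the study's methods, and Benjamini-Hochberg adjusted p-values over all genes stand beside it. The standard error is the log2 fold change divided by the square root of F. Responses of the lines were compared with glmTreat against 1.5-fold over all 12 libraries. RPKM used the length of the GENCODE canonical transcript, since the deposited tables give none, which can differ from the transcript counted. Gene positions, exon overlaps and 3′ UTRs came from GENCODE on GRCh37, and promoters from RefSeq on GRCh38.p14.

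The members and all lists were chosen with earlier results of these data known. Library values are printed for the member with the highest control RPKM of each role and the 6 members with the largest difference between lines. They are also printed for members called down or in opposite directions, the largest change in each line and N6AMT1. Of each other list, the 2 genes with the largest change past the threshold in each line are named. CDKN1A and CENPT are named in addition, each as the gene of its list with a lower response in CAL-29 cells. Counts of replicates differed beyond counting error (chi-square divided by its degrees of freedom, 2.25 to 12.2), so that the spread between libraries limits precision. Deviations of same-numbered libraries correlated between -0.008 and 0.135 and the numbers were not used as pairs. On simulated counts with 50 genes changed at each fold, 45 changed 2-fold were recovered at 1e-06 for CAL-29 and 46 for 5637 cells, 35 and 37 of those changed 1.5-fold, and 13 and 16 of those changed by the smallest fold, below 1.5, out of 14487 and 14216 genes, with 0 false calls. Alternatives were other scalings and filters, DESeq2 1.42.0, a replicate block, summed transcripts, a joint model, other thresholds and leaving out each library. No sample column was left out. Python 3.11.15 drew the figures.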

Additional observations from a re-analysis of the deposited data

Results flagged for a closer look

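For 19 of the 47 genes the response to siKMT9α differed between the cell lines by the interaction test against 1.5-fold, each with a larger log2 fold change in CAL-29 than in 5637 cells. The differences in log2 fold change, CAL-29 minus 5637, were 1.52 for PLK1, 1.23 for AURKA and 0.87 for TPX2. In the checkpoint they were 1.41 for CDC20, 1.21 for MAD2L1, 1.17 for BUB1, 1.12 for BUB1B and 0.91 for TTK. The corona genes CENPE and CENPF differed by 1.41 and 0.81. In the passenger complex the differences were 0.91 for CDCA8, 0.87 for BIRC5 and 0.79 for INCENP. In the outer kinetochore they were 0.97 for SKA3, 0.92 for ZWINT, 0.85 for NUF2 and 0.84 for SPC25. SGO2 differed by 0.95 and OIP5 by 0.93. Cell line, siRNA dose and transfection reagent cannot be told apart in these differences. Dixon's test for single samples was not applied, since groups held 3 libraries.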

How the results depend on the processing

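The direction of every named member's log2 fold change was kept wherever it was called: of 608 values under alternatives, 582 stayed on their side of the threshold, 14 lost it, 12 gained it and 0 reversed. The losses were those of BIRC5, DSN1 and CENPH when 1 library was left out. SKA2 in CAL-29 cells and AURKB, MIS18A and MAD2L1 in 5637 cells gained it under some settings. With total counts as the scale, the median log2 fold change was 0.96 in CAL-29 and 0.18 in 5637 cells, and 0.19 with the upper quartile in 5637 cells. Among all genes, the share of DEGs that were up moved under total counts from 49.8% to 59.4% in CAL-29 and from 50.6% to 42.8% in 5637 cells. At an adjusted p below 0.05, 3 members were lower in CAL-29 cells, and 25 were higher and 9 lower in 5637 cells. With a log2 fold change of at least 1 required, 20 members were up in CAL-29 cells, and 0 were up and 0 down in 5637 cells. Counts summed over transcripts gave 3 members down in 5637 cells, and the cause was not tested. The test of any interaction, which asks for no minimum difference, gave 41 members higher and 1 lower in CAL-29 cells. Its share over all genes was not computed. As TPM, the median control level was 20.31 in CAL-29 and 28.36 in 5637 cells. Leaving out 1 library gave 28 to 33 members up and 0 down in CAL-29 cells, 13 to 16 up and 3 to 4 down in 5637 cells, medians of 0.84 to 0.89 and of 0.21 to 0.22, and 18 to 21 members with a higher response in CAL-29 cells.

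Fits with a replicate block called 33 members up in CAL-29 cells, 17 up and 6 down in 5637 cells, and gave 21 members a higher response in CAL-29 cells. Over all genes the block moved the DEGs from 4402 to 6327 in CAL-29 and from 5104 to 5378 in 5637 cells. Among the named members, SKA2 in CAL-29 and AURKB in 5637 cells passed the threshold under the block, with edgeR p of 1.46e-10 and 6.18e-07, and no other call changed. Deviations of same-numbered libraries correlated at 0.135 in CAL-29 and 0.119 in 5637 cells for replicate 1. For replicates 2 and 3 the values were 0.012 and 0.059 in CAL-29 and -0.008 and 0 in 5637 cells. Whether the numbers mark pairs is not stated in the sources used here, and a shared effect of replicate 1 was not tested.

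With 3 libraries per group, calls near 1e-06 rest on single libraries. SPC24, at 2.89 to 3.48 CPM in siCtrl CAL-29 libraries, was the least deeply counted member there and had the largest standard error.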

Other observations

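Letters complementary to positions 2 to 8 of an siRNA strand can mark transcripts that an siRNA lowers beside its target. For siKMT9α#1 these letters are ACATTCA, and whether si270, the name in the deposited tables, is this siRNA is not stated in the sources used here. In the longest annotated 3′ UTR they occurred in 5 of the 47 genes, CENPN, CENPP, SKA3, CENPE and BUB3, which is 10.6%, beside 16.6% of genes tested in CAL-29 and 16.9% in 5637 cells. The median log2 fold change of these 5 genes was 0.41 in CAL-29 and -0.03 in 5637 cells, and that of the other 42 was 0.89 and 0.26. Over all genes with these letters the medians were -0.24 and -0.28, and over those without 0.04 and 0.03. In the shortest annotated 3′ UTR the letters occurred in 2 members, SKA3 and SGO2. No test was run over these genes, and of the 5 genes downregulated in 5637 cells, CENPN alone holds the letters, in its longest 3′ UTR. The 47 genes have 95 RefSeq transcripts in the deposited counts, with more than 1 for 22 genes and 1 for each of the other 25.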
